A study of Mus musculus with 11 samples.

Results

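This account covers 2 windows of 1 Mb on the mouse genome assembly mm9 in which HIV integration directed by the subunits of NELF was denser than integration directed by Integrator subunits although neither window holds a histone gene. The windows are chr1:6000000-6999999, which contains Rb1cc1, and chr11:48000000-48999999, which contains Irgm1. Members are the distinct integration sites, each a chromosome, position and strand, that fall inside these borders in any of 11 libraries, 778 of 831994 sites in all. The Rb1cc1 window held 362 of them and the Irgm1 window 416. The windows were chosen by the NELF and Integrator site counts themselves, that is for the difference between NELF and Integrator libraries, so every value of that contrast inside them is a description and carries no test.

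Each library came from C57BL/6 mouse embryonic fibroblasts (MEFs) of the genotype LEDGF-/-, which lack the host protein that normally tethers HIV integrase to chromatin. A plasmid for 1 protein joined to LEDGF-IBD, the integrase-binding domain of LEDGF, was electroporated, HIV was added 24 h later, and genomic DNA was taken after 3 more days, so the deletion, the electroporation and the virus are common to all libraries. The 4 NELF libraries carried NELFA, NELFB, NELFCD or NELFE. The 6 libraries on the Integrator side, called Integrator libraries below, carried INTS9, INTS11, INTS3, NABP1, NABP2 or INIP. The last 4 are subunits of SOSS complexes, in which NABP1 and NABP2 are alternatives. A single library carried SPT5. Each protein was 1 library, so the spread within a side is a spread between subunits, and no library without a fused protein was analysed here. Whether a fused subunit enters its complex, and at what level it was made, is not given in the sources used here.

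NELF holds RNA polymerase II in a pause shortly after the start of transcription together with DSIF, whose large subunit is SPT5. Integrator is an RNA-cleaving complex that joins the paused polymerase, processes small nuclear RNAs and ends transcription of many other RNAs. A protein joined to the integrase-binding domain is meant to bring integration to the chromatin on which it sits. A cluster of sites is thus an indirect sign of its binding, which was not measured here. RB1CC1, also called FIP200, is the scaffold of the ULK1 kinase complex that starts autophagy. IRGM1 is a member of the IRG family of interferon-inducible GTPases, which act on vacuoles that hold intracellular microbes. GNB2L1, now named RACK1, is a scaffold protein of the small ribosomal subunit, and its introns host small nucleolar RNAs.

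The libraries held between 18753 sites (NELFE) and 197069 (INTS9), and values are given as sites per 100000 sites of the library. A single site was therefore worth 5.33 in NELFE and 0.507 in INTS9. A count of 0 was taken to allow up to 3 sites, which is 16.0 in NELFE, 12.0 in INIP and 3.66 in SPT5. This limit is narrower than the upper end of the intervals named next. Intervals are exact 95% Poisson intervals, which cover counting error only. They leave out variation between libraries of the same protein, since each protein was a single library. Amplified copies of a junction at the same position and strand were collapsed before counting. The 4 NELF libraries shared a flow cell with each other and with nothing else, and SPT5 was alone on another, so a difference between proteins and one between flow cells cannot be told apart, and no value within a flow cell exists for any comparison of NELF with Integrator or SPT5.

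The reference sequence of the stretches where the NELF sites were densest is printed here to show where, relative to each gene, the sites fell. In each, capitals mark the bases at which a NELF library had a site, and the letters are from the mm9 genome. The Rb1cc1 stretch, chr1:6269758-6270057 on the plus strand, begins 3.029 kb past the annotated end of Rb1cc1 and lies outside every annotated gene. The Irgm1 stretch, chr11:48685499-48685798 on the minus strand, ends 0.314 kb upstream of the annotated start of Irgm1. Both were chosen after the site positions had been seen.
Rb1cc1 past-end stretch: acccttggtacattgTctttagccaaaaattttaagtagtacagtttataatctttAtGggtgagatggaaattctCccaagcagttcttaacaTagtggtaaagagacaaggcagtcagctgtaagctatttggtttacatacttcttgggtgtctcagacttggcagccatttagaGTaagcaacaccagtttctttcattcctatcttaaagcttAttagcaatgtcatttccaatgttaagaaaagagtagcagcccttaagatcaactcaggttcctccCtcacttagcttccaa
Irgm1 upstream stretch: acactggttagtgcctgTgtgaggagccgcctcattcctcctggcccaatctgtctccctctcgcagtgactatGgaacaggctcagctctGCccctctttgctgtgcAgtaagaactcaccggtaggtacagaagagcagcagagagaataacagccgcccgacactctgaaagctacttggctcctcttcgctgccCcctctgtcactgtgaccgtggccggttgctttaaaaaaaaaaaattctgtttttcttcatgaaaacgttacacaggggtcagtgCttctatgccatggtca

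The Rb1cc1 stretch held 9 NELF sites at 9 different positions, 3 from NELFA, 4 from NELFB, 1 from NELFCD and 1 from NELFE, beside 2 sites from all Integrator libraries and 0 from SPT5. Its base composition was 38.3% G and C with 0 CpG dinucleotides, against a median of 45.0% and 2 CpG over 22350 stretches of 300 bases placed 3 kb past the end of each protein-coding gene. The Irgm1 stretch held 7 NELF sites, 1, 3, 1 and 2 in the order NELFA to NELFE, beside 3 Integrator sites and 0 SPT5 sites. It had 51.7% G and C and 9 CpG, close to the medians of 53.3% and 9 over the 300 bases upstream of the same genes.

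The last sequence is the 300 bases upstream of the coding transcript of Irgm1 that starts farthest upstream, chr11:48684923-48685222 on the minus strand, which lies mostly inside the first part of a longer noncoding transcript of the gene. It is shown because SPT5 had 3 sites in it and NELF 0, with 1 Integrator site. The capitals mark matches to GAAANNGAAA, the core of the interferon-stimulated response element.
Irgm1 promoter: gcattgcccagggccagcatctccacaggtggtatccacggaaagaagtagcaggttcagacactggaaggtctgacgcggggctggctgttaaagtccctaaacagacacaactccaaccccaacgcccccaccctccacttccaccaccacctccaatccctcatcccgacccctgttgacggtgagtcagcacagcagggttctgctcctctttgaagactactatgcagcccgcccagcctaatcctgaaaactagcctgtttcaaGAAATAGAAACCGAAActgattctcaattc

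The 2 matches overlap, 30 to 21 and 24 to 15 bases upstream of the coding transcript's start. On both strands, 4.12% of the 22350 upstream stretches held GAAANNGAAA, as did 4.09% of the stretches past gene ends. TGANTCA, the AP-1 motif, had 1 match in the Irgm1 promoter and is present in 7.12% of upstream stretches and 8.51% of past-end stretches. TATAAA, the TATA box, had 1 match in the Rb1cc1 past-end stretch, where 20.4% of past-end stretches hold it, against 14.5% of upstream stretches. The remaining motif and stretch pairs had no match. A match is a description of the letters only.

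In the Rb1cc1 window NELFA had 103 sites per 100000 (31 sites, interval 70.0 to 146), NELFB 100.1 (31 sites), NELFE 101 (19 sites) and NELFCD 58.2 (24 sites, interval 37.3 to 86.5). The 6 Integrator values ran from 23.6 in INTS11 over 24.1 in INIP, 34.5 in INTS9, 38.2 in NABP1 and 40.5 in INTS3 to 41.9 in NABP2. SPT5 had 32.9 (27 sites, interval 21.7 to 47.9). Every NELF library exceeded the highest Integrator library, 3 of them close together and NELFCD well below, and SPT5 lay inside the Integrator range. The means were 90.6 ± 21.7 (SD, n = 4) in NELF and 33.8 ± 8.12 (SD, n = 6) in Integrator, 2.68-fold.

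In the Irgm1 window NELFA had 93.0 sites per 100000 (28 sites), NELFE 85.3 (16 sites), NELFB 77.5 (24 sites) and NELFCD 72.7 (30 sites). The Integrator values were 26.5 in INTS11, 28.1 in INIP, 31.7 in NABP2, 41.1 in INTS9, 42.6 in INTS3 and 45.1 in NABP1. SPT5 had 81.7 (67 sites, interval 63.3 to 104), inside the NELF range and above every Integrator library. The means were 82.1 ± 8.91 (SD, n = 4) in NELF and 35.9 ± 8.03 (SD, n = 6) in Integrator, 2.29-fold. The SPT5 library thus lay with Integrator in the Rb1cc1 window and with NELF in the Irgm1 window. SPT5 took no part in choosing the windows, but 1 library allows no test.

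**Figure D1:**
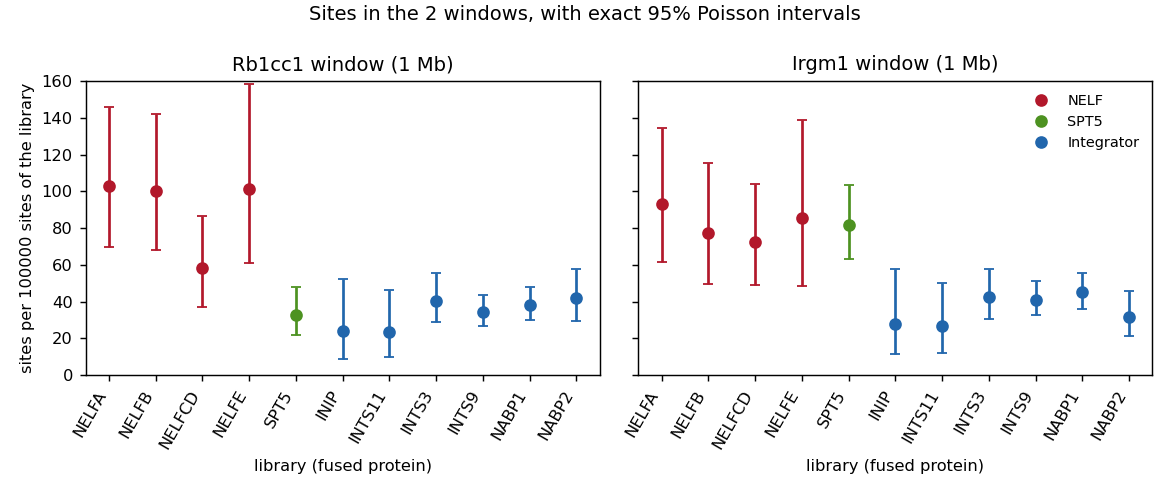
Sites per 100000 sites of each library (vertical axis) in the Rb1cc1 window (left) and the Irgm1 window (right), 1 point per library with its exact 95% Poisson interval. The 4 NELF points lie at 58.2 or higher on the left and 72.7 or higher on the right, the 6 Integrator points at 45.1 or lower, and SPT5 at 32.9 on the left and 81.7 on the right.

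Regions of 1 Mb with a mean of at least 10 sites over these 10 libraries numbered 2221, and in 15 of them, 0.675%, no NELF library overlapped the Integrator range and all 4 lay above it. With limma at an adjusted p under 0.05, 7 regions were called higher in NELF, 0.315%, and 3 lower, 0.135%. Of the 7, 5 hold histone genes and the other 2 are the windows described here, as the way they were picked requires. Their log2 differences in that fit were 1.40 (SE 0.23) at Rb1cc1 and 1.20 (SE 0.21) at Irgm1. By the difference of means they ranked 14 and 21 among the 2221 regions. Among the 2213 regions without histone genes they ranked 9 and 16, so other such regions had larger differences.

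The neighbouring megabases showed no such gap. The 1 Mb before the Rb1cc1 window had 12.4 ± 9.21 (SD, n = 4) sites per 100000 in NELF and 19.2 ± 4.59 (SD, n = 6) in Integrator, and the 1 Mb after it 24.7 ± 9.73 and 22.2 ± 11.8. Before the Irgm1 window the means were 11.3 ± 4.93 in NELF and 20.3 ± 16.1 in Integrator, and after it 50.8 ± 7.88 and 50.4 ± 11.7. The groups overlapped in all 4. At the borders themselves sites were sparse: NELF had 0 sites in the 10 kb just outside each of the 4 borders, and just inside them 0 except at the start of the Irgm1 window, where the mean was 1.41 (Integrator 0.19). In these same outside bins the Integrator means ran from 0.085 to 1.48.

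Within the Rb1cc1 window 5 adjoining bins of 10 kb, chr1:6260000-6309999, carried 99.1% of the difference between the means. They held 63.2 ± 19.6 (SD, n = 4) sites per 100000 in NELF, 6.80 ± 3.75 (SD, n = 6) in Integrator and 3.66 in SPT5. The rest of the window held 27.5 ± 3.95 in NELF, 27.0 ± 7.31 in Integrator and 29.3 in SPT5. The bin from 6270000 to 6279999 alone carried 50.9%, with 36.5 in NELFA, 38.8 in NELFB, 14.5 in NELFCD and 32.0 in NELFE against 0 to 3.55 in the Integrator libraries and 2.44 in SPT5. Of the window's bins 4 reached a mean of 2 sites over the 10 libraries, and in 3 of these every NELF library exceeded every Integrator library, a pattern found in 5.85% of the 4377 such bins of the genome. The plot of both windows in 10-kb bins shows the block of NELF sites, most of it past the annotated end of the gene.

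**Figure D2:**
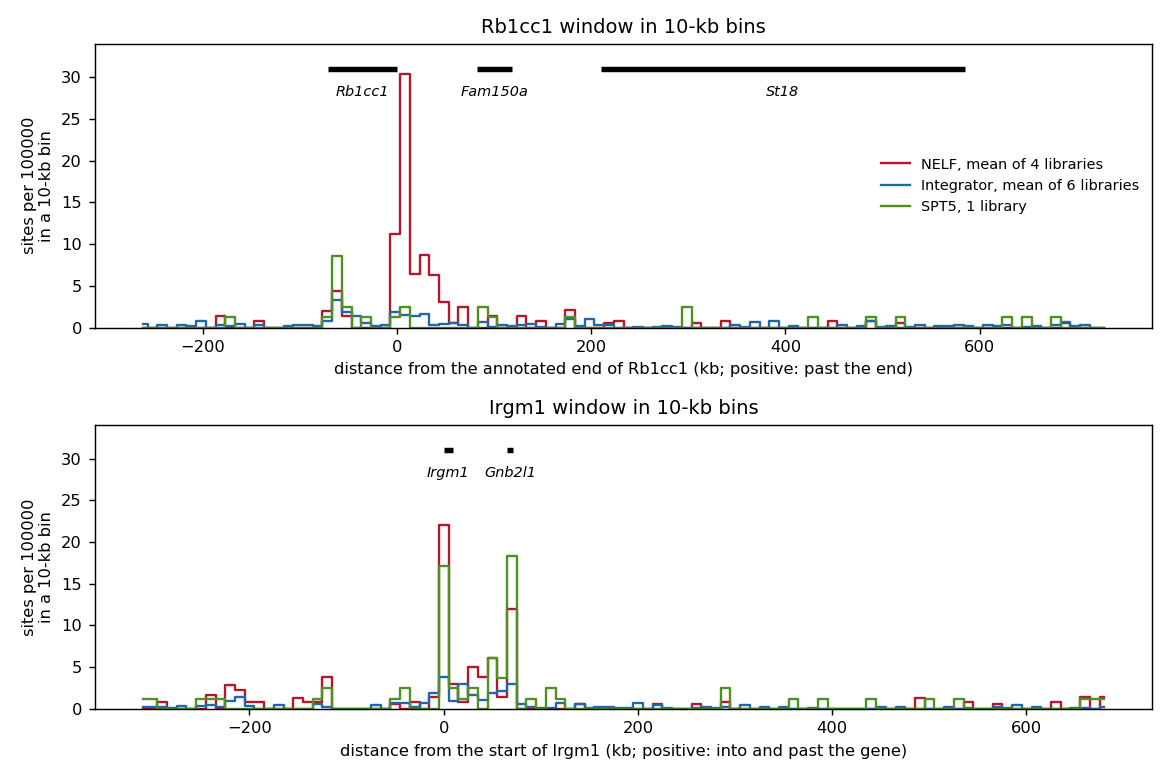
Mean sites per 100000 in bins of 10 kb (vertical axis) along each window, with the distance in kb from the annotated end of Rb1cc1 (top) or from the start of Irgm1 (bottom); black bars are genes, red is the NELF mean of 4 libraries, blue the Integrator mean of 6 and green SPT5. At Rb1cc1 the red line reaches 30.5 past the gene's end, where blue is at 1.51 and green at 2.44. In that window green has its highest bin, 8.53, at the start of the main coding transcript, inside the annotated gene. At Irgm1 red and green have their highest bins at the same 2 places.

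The excess at Rb1cc1 lay outside the gene. Rb1cc1 (ENSMUSG00000025907.7, plus strand, chr1:6196278-6266729) had 9.96 sites per 100000 within its borders in NELFA, 6.46 in NELFB, 7.27 in NELFCD and 5.33 in NELFE. The Integrator libraries ranged from 2.95 (INTS11) over a median of 7.995 to 13.6 (NABP2), and SPT5 had 14.6. The NELF values lay inside the Integrator range, with means of 7.26 ± 1.97 (SD, n = 4) and 8.17 ± 3.64 (SD, n = 6), and SPT5 was the highest of the 11. In the 2.5 kb on each side of the start of the main coding transcript the means were 3.07 ± 2.75 and 1.82 ± 1.87, with 4.88 in SPT5.

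Past the gene's end the sides separated. The stretches named next were set after the positions had been seen. In the first 2.5 kb past the end NELF had 0.83 ± 1.66 (SD, n = 4), Integrator 0.71 ± 0.79 (SD, n = 6) and SPT5 0. From 2.5 to 5 kb past the end NELFA had 23.2 sites per 100000 (7 sites), NELFB 25.8 (8 sites), NELFCD 7.27 (3 sites) and NELFE 32.0 (6 sites). In that stretch the Integrator libraries had 0 in INIP and NABP2, 0.531 in NABP1, 1.01 in INTS9, 1.04 in INTS3 and 2.95 in INTS11, and SPT5 had 1.22. No NELF library overlapped the Integrator range or SPT5, and the 24 NELF sites stood against 5 from Integrator libraries with a far larger total of sites. The means were 22.1 ± 10.5 and 0.92 ± 1.09.

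The NELF sites did not form a single peak. Between 5 and 10 kb past the end the means were 5.82 ± 0.87 in NELF and 0.63 ± 1.01 in Integrator, and between 10 and 15 kb a second cluster had 23.2 in NELFA, 19.4 in NELFB, 7.27 in NELFCD and 10.7 in NELFE against 0 to 2.95 in the Integrator libraries and 1.22 in SPT5. From 15 to 20 kb the sides overlapped, with 3.47 ± 5.03 and 0.62 ± 0.71. From 20 to 40 kb the NELF libraries ran from 9.96 to 19.4 and the Integrator libraries from 0 to 2.95, and from 40 to 80 kb from 4.85 to 9.96 and from 0 to 2.95. SPT5 had 0 sites in each of the stretches from 5 to 10, 15 to 20, 20 to 40 and 40 to 80 kb, where 0 allows up to 3.66.

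Over the whole 50 kb past the end NELFA had 73.1 sites per 100000, NELFB 77.5, NELFE 74.7 and NELFCD 36.4, 75 sites in all. The Integrator libraries had 0 in INIP, 6.23 in INTS3, 6.90 in NABP1, 8.63 in INTS9, 8.84 in INTS11 and 10.2 in NABP2, and SPT5 had 2.44 (2 sites, interval 0.295 to 8.81). The NELF mean of 65.4 ± 19.5 (SD, n = 4) was 9.62-fold the Integrator mean of 6.80 ± 3.62 (SD, n = 6). Without NELFCD the difference of the means was 68.3 in place of 58.6. This 50-kb stretch ends before the next annotated gene, Fam150a, which starts at 6349537.

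**Figure D3:**
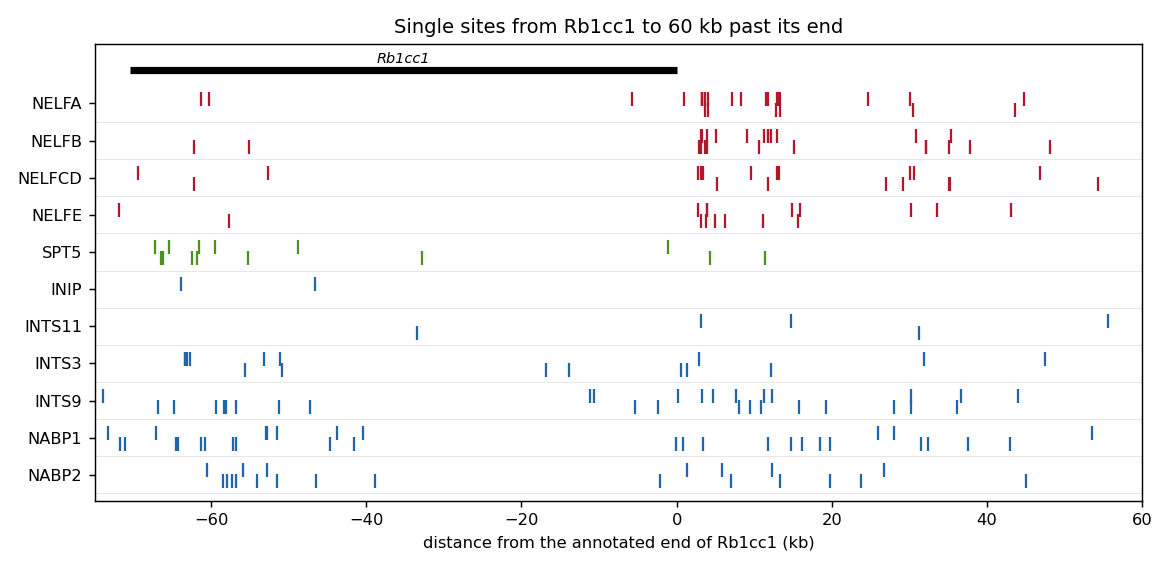
Single integration sites of the 11 libraries from Rb1cc1 to 60 kb past its end; the horizontal axis is the distance in kb from the annotated end, each row is a library, upper ticks are plus-strand and lower ticks minus-strand sites, and the black bar is the gene. The 4 NELF rows have 75 of their sites in the first 50 kb past the end, while the SPT5 row has 12 of its sites inside the gene and 2 in those 50 kb.

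Among 797 bins of 10 kb that passed the minimum and lie at least 5 kb from any annotated start, the bin at 6270000 ranked 1 by the difference of means. Others high in that order were a bin 30235 bases from the pseudogene Rpl30-ps6 (33.98 in NELF, 8.07 in Integrator, 25.6 in SPT5), one in Gm14488 (28.2, 7.99 and 21.9) and one 29083 bases from Crabp1 (16.9, 0.265 and 2.44). The SPT5 value of the bins at ranks 2 to 8 ran from 2.44 to 26.8. The stretch 2.5 to 5 kb past the end of Rb1cc1 also ranked 1 among 10821 protein-coding genes with no other gene within 10 kb past their end, by both the NELF mean and the difference. Across those genes the same stretch averaged 0.087 sites per 100000 for NELF, 0.089 for Integrator and 0.076 for SPT5, and 8.34% of them had any NELF site there. Next in order was Hist2h2be, a replication-dependent histone gene, with 14.9 in NELF, 0.78 in Integrator and 1.22 in SPT5. Without the condition on neighbours, Rb1cc1 was at rank 18 of 22350 by the difference. The rule chose the window for a large NELF value, so these ranks describe it and add no support.

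The flank added to Rb1cc1 set its own score. With 5 kb on each side it had 36.5 sites per 100000 in NELFA, 32.3 in NELFB, 14.5 in NELFCD and 42.7 in NELFE, beside 5.89 to 14.7 in the Integrator libraries and 15.8 in SPT5. NELFCD lay just below NABP2, the highest Integrator library, so the sides touched. The means were 31.5 ± 12.1 (SD, n = 4) and 10.3 ± 3.41 (SD, n = 6), and the log2 difference in the limma fit was 1.48 (SE 0.39). With 1 kb on each side the means were 8.09 and 8.60, with 14.6 in SPT5, so the wider flank carries the whole difference.

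No other gene of the Rb1cc1 window showed an excess. The minus-strand gene 4732440D04Rik is annotated as 2 genes inside the Rb1cc1 model, at the start of the main coding transcript of Rb1cc1. With 5 kb on each side it had 4.41 ± 1.93 (SD, n = 4) in NELF, and its noncoding entry had 3.07 ± 1.67 (SD, n = 6) in Integrator and 9.75 in SPT5. These sites also lie within Rb1cc1 and are not separate from it. Fam150a, annotated here as a lincRNA, had 1.33 ± 2.67, 1.29 ± 1.17 and 3.66. St18, a zinc finger transcription factor gene that spans 374 kb, had 5.12 ± 4.39, 5.97 ± 3.89 and 6.09. Of the 5 annotated genes of this window that are not pseudogenes, 0 had every NELF library above every Integrator library, against 3.39% of the 10897 genes of the genome with a mean of at least 2 sites.

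In the Irgm1 window the 2 bins of largest difference each held a gene start. The rest of the difference was less concentrated than at Rb1cc1. The bin from 48680000 to 48689999, which holds the start of Irgm1, carried 39.6% of the difference, and the bin from 48610000 to 48619999, which holds Gnb2l1, brought this to 59.0%. The stretch from Gm5431 to Ifi47 had a difference of means of 8.23, against 8.99 in this second bin. With 3 more bins added to these 2 the share was 82.9%. The 5 bins held 49.05 ± 10.9 (SD, n = 4) in NELF, 10.7 ± 6.17 (SD, n = 6) in Integrator and 46.3 in SPT5, and the remainder of the window 33.1 ± 9.80, 25.2 ± 2.61 and 35.3. Here 2 of the 4 bins that passed the minimum had every NELF library above every Integrator library, against the 5.85% of such bins of the genome.

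Irgm1 (ENSMUSG00000046879.5, minus strand, chr11:48675470-48685185) with 5 kb on each side had 26.6 sites per 100000 in NELFA, 19.4 in NELFB, 17.0 in NELFCD and 37.3 in NELFE. The Integrator libraries ranged from 2.95 to 7.27 and SPT5 had 19.5. The means were 25.1 ± 9.14 (SD, n = 4) and 5.39 ± 1.61 (SD, n = 6), and the sides did not overlap, SPT5 being within the NELF range.

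NELF and SPT5 sites at Irgm1 fell on different sides of its start. In the 2.5 kb upstream of the annotated start NELFA had 16.6 sites per 100000 (5 sites), NELFB 12.9 (4 sites), NELFCD 12.1 (5 sites) and NELFE 32.0 (6 sites). The Integrator libraries had 0 in INIP, INTS11 and INTS3, 2.12 in NABP1, 2.27 in NABP2 and 3.04 in INTS9, and SPT5 had 2.44 (2 sites, interval 0.295 to 8.81). All 4 NELF libraries were thus above the other 7. In the first 2.5 kb of the gene SPT5 had 12.2 (10 sites, interval 5.85 to 22.4), whereas NELFA had 3.32, NELFB 3.23, NELFCD 4.85 and NELFE 0. The Integrator libraries there ran from 0 to 2.95. The NELF mean was 18.4 ± 9.27 (SD, n = 4) upstream and 2.85 ± 2.04 inside, and the Integrator mean was 1.24 ± 1.39 (SD, n = 6) and 1.53 ± 1.23. In counts, 20 NELF sites were upstream and 4 inside, 12 and 11 for Integrator, and 2 and 10 for SPT5. These 2 stretches were set after the positions had been seen, and the difference between NELF and SPT5 rests on 1 SPT5 library.

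**Figure D4:**
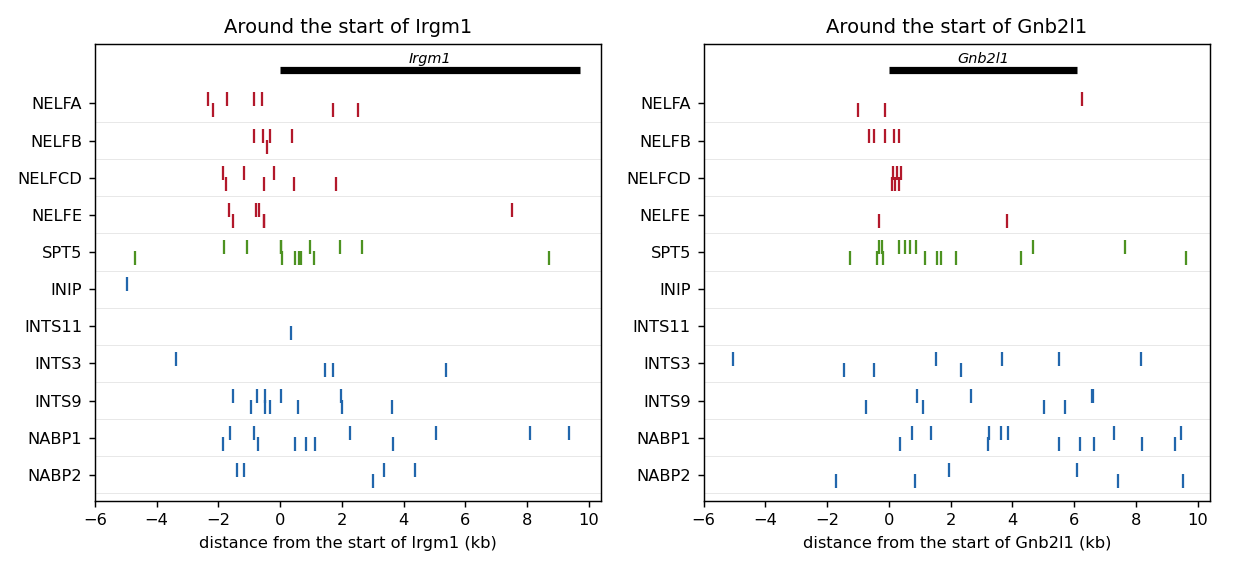
Single integration sites of the 11 libraries around the start of Irgm1 (left) and of Gnb2l1 (right), with the distance from the annotated start in kb in the direction of transcription on the horizontal axis, 1 row per library, upper ticks for plus-strand and lower ticks for minus-strand sites, and black bars for the genes. Left of 0 on the Irgm1 panel lie 20 NELF sites within 2.5 kb and 2 SPT5 sites, and 10 SPT5 sites lie in the first 2.5 kb of the gene.

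How the sites divide depends on the start used. The annotated start at 48685185 belongs to a noncoding transcript, and the coding transcript that starts farthest upstream begins at 48684922. The 20 NELF sites of the upstream stretch lay between 48685371 and 48687509, beyond both. For SPT5 the first 2.5 kb on each side held 2 sites upstream and 10 inside from the annotated start, and 5 upstream and 8 inside from the coding start. The 6 Integrator libraries together held 12 and 11 sites from the annotated start, and 13 and 10 from the coding start. No NELF site lay from 2.5 to 5 kb upstream, and the mean from 5 to 10 kb upstream was 1.44 ± 1.70 (SD, n = 4) in NELF and 0.085 ± 0.21 (SD, n = 6) in Integrator. Beyond its first 2.5 kb the gene had means of 2.16 ± 2.63 for NELF and 1.18 ± 1.35 for Integrator, and a value of 2.44 for SPT5.

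Gnb2l1 (ENSMUSG00000020372.9, plus strand, chr11:48613834-48619936) with 5 kb on each side had 9.96 in NELFA, 16.1 in NELFB, 14.5 in NELFCD and 10.7 in NELFE. The Integrator libraries ranged from 0 to 7.43, and SPT5 had the highest value of the 11 libraries, 20.7. The means were 12.8 ± 2.99 (SD, n = 4) and 4.26 ± 3.52 (SD, n = 6). In the 2.5 kb upstream of its start the NELF libraries had 6.64, 9.69, 0 and 5.33 in the order NELFA to NELFE, the Integrator libraries 0 to 2.08 and SPT5 6.09. In its first 2.5 kb the NELF values were 0, 6.46, 14.5 and 0, the Integrator libraries had 0 to 2.27 and SPT5 9.75. Both stretches overlapped between the sides, and the second rests on NELFCD: without it the difference of the means was 0.99 in place of 4.09. The 3 small nucleolar RNA genes annotated in Gnb2l1, SNORD95, Snord96a and Snord95, share these same sites when 5 kb is added on each side and cannot be separated from the host.

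**Figure D5:**
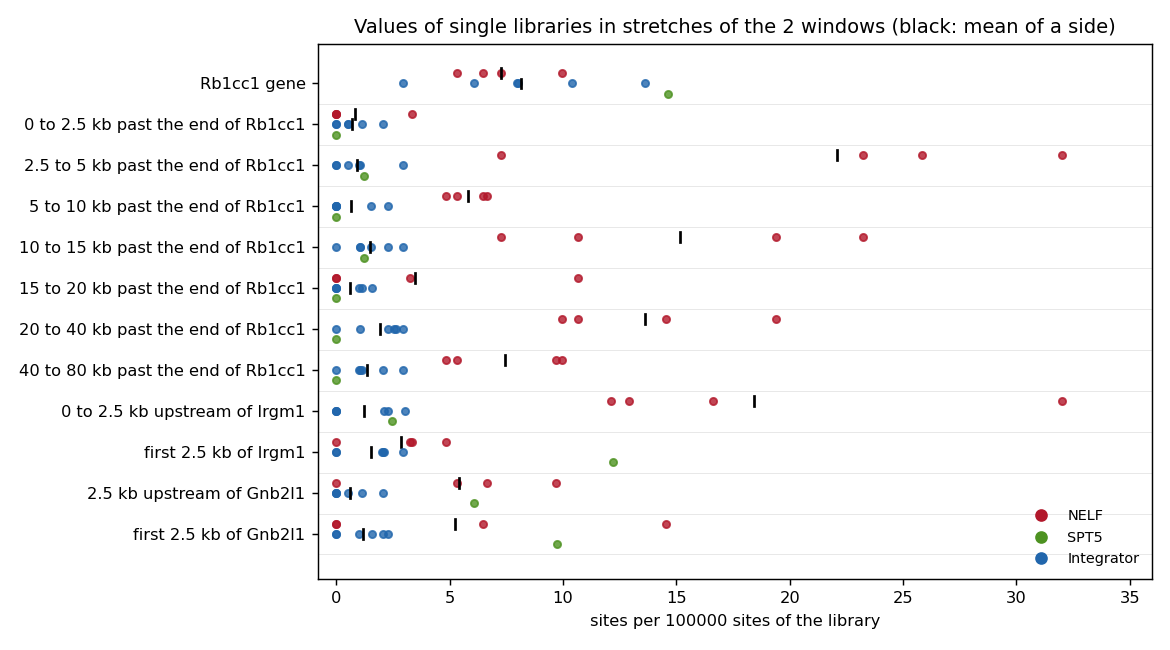
Sites per 100000 sites of each library (horizontal axis) in stretches of both windows, 1 point per library in red for NELF, blue for Integrator and green for SPT5, with black bars at the mean of a side. The red points stand clear of the blue in the stretch 2.5 to 5 kb past the end of Rb1cc1 (7.27 to 32.0 against 0 to 2.95) and in the 2.5 kb upstream of Irgm1 (12.1 to 32.0 against 0 to 3.04), but not in the Rb1cc1 gene.

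The other genes of the Irgm1 window showed smaller or overlapping values. Trim7, which encodes a tripartite motif E3 ubiquitin ligase, with 5 kb on each side had 19.9, 9.69, 4.85 and 16.0 in the order NELFA to NELFE, 2.27 to 12.0 in the Integrator libraries and 3.66 in SPT5. Gm12184, which overlaps the start of Trim7, had 5.96 ± 5.20 (SD, n = 4) in NELF, 1.66 ± 1.92 (SD, n = 6) in Integrator and 0 in SPT5. Trim41, a relative of Trim7 next to Gnb2l1, had 5.92 ± 5.12, 5.49 ± 5.12 and 17.1. The lincRNA gene Gm16170 had 2.24 ± 1.55, 4.32 ± 3.98 and 2.44. Tgtp1, a GTPase of the IRG family, had 4.61 ± 3.13, 0.61 ± 0.70 and 3.66. The model of Gm12185, which overlaps Tgtp1, had 4.38 ± 1.84, 2.39 ± 1.04 and 7.31. Within its own borders the order of the sides was reversed, with 0.61 ± 1.21 in NELF, 1.95 ± 1.24 in Integrator and 3.66 in SPT5.

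The annotated model of the olfactory receptor gene Olfr56 spans the IRG genes from Tgtp1 to Ifi47 and had 26.6, 16.1, 7.27 and 10.7 in NELF against 0 to 9.64 in Integrator and 7.31 in SPT5. From Gm5431 to Ifi47, the stretch that holds the IRG genes other than Irgm1, NELF had 14.9 ± 6.23 (SD, n = 4), Integrator 6.70 ± 2.65 (SD, n = 6) and SPT5 7.31, and the lowest NELF library (9.69) was below INTS9 (10.7). Of the 23 annotated genes of the window that are not pseudogenes, 5 had every NELF library above every Integrator library: Irgm1, Gnb2l1 and the 3 small nucleolar RNA genes inside it. These 5 were among 10 genes with a mean of at least 2 sites, and of such genes across the genome 3.39% had the pattern. Gnb2l1 and the 3 genes inside it share their sites, so these 4 are not separate observations.

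By annotation, a mean of 83.9% ± 7.35 (SD, n = 4) of a NELF library's sites in the Rb1cc1 window were intergenic, from 75.0% to 90.3%. The Integrator mean was 54.4% ± 19.8 (SD, n = 6), from 16.7% to 75.0%, and SPT5 had 25.9%. The intergenic share of NELF includes the cluster by which the window was picked, so it is a description. In the Irgm1 window the share of sites within 1 kb of an annotated start was 42.4% ± 15.9 (SD, n = 4) for NELF, from 21.4% to 58.3%. For Integrator it was 14.8% ± 9.13 (SD, n = 6), from 0% to 22.2%, and for SPT5 38.8%, so the sides overlapped. In the Rb1cc1 window that share was 3.70% ± 3.45 (SD, n = 4) for NELF, 1.57% ± 1.81 (SD, n = 6) for Integrator and 11.1% for SPT5.

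Sites were collapsed to distinct positions within each library, so only repeats between libraries could be counted. These were sites with the same position and strand in another library. Among the NELF sites they were 2 of 105 in the Rb1cc1 window (1.90%) and 3 of 98 in the Irgm1 window (3.06%). The share over all sites of the series was 1.33%. The first pair was a minus-strand site at 6301893 in both NELFB and NELFCD, which share a flow cell. All 24 NELF sites 2.5 to 5 kb past Rb1cc1 and all 20 in the 2.5 kb upstream of Irgm1 lay in a 30-base sequence with 1 exact copy in mm9, as did 95.2% and 93.9% of the NELF sites of the whole windows. For the whole windows the Integrator shares were 91.3% and 94.0%, and the SPT5 shares 96.3% and 100%. On the plus strand were 14 of the 24 NELF sites past Rb1cc1 and 13 of the 20 upstream of Irgm1.

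Of the measures that played no part in picking the windows, 0 of 8 passed 0.05, adjusted or unadjusted. The share of sites on the plus strand in the Rb1cc1 window was 60.2 ± 12.0% (SD, n = 4) in NELF, 48.8 ± 10.1% (SD, n = 6) in Integrator and 40.7% in SPT5 (two-sided exact permutation test, p = 0.143, adjusted p = 0.533). In the Irgm1 window it was 54.5 ± 16.3% and 51.5 ± 16.9% (exact p = 0.776, adjusted p = 0.857). The first number of the read names, never below 2 and treated as reads per site, averaged 34.3 ± 14.9 and 22.7 ± 8.23 at Rb1cc1 (exact p = 0.148, adjusted p = 0.533) and 44.6 ± 48.3 and 25.1 ± 6.97 at Irgm1 (exact p = 0.419, adjusted p = 0.838). The second number, treated as a fragment length in bases, averaged 130.02 ± 13.1 and 134 ± 27.7 at Rb1cc1 (exact p = 0.843, adjusted p = 0.857) and 142 ± 15.6 and 129 ± 14.9 at Irgm1 (exact p = 0.2, adjusted p = 0.533). Deposited entries per distinct site averaged 1.02 and 1.03 at Rb1cc1 (exact p = 0.857) and 1.02 and 1.03 at Irgm1 (exact p = 0.690), both with an adjusted p of 0.857. Adjustment was over these 8 tests, each of which enumerated 210 assignments of the labels.

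Genes with a related function elsewhere in the genome were then counted, with 5 kb on each side. Of the 1130 genes that reached a mean of 10 sites, limma called 80 higher in NELF, 7.08%, and 4 lower, 0.354%, at an adjusted p under 0.05. Few list members met that minimum, so the counts of calls say little. Over all 32044 genes that are not pseudogenes the median level was 1.21 sites per 100000 for NELF and 1.23 for Integrator, the median difference 0, and 39.4% had a higher mean in NELF.

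Of the IRG family, 4 genes lie outside the window and 0 were tested. Irgm2 had 1.33 ± 2.67 (SD, n = 4) sites per 100000 in NELF, 2.29 ± 1.49 (SD, n = 6) in Integrator and 3.66 in SPT5, and Igtp, beside it on chromosome 11, 2.04 ± 2.44, 1.09 ± 1.10 and 4.88. Irgc1 (0.83, 1.20 and 1.22) and Iigp1 (0.61, 0.17 and 0) were sparser still. The median difference over the 4 was 0.029, and 2 of the 4 had a higher mean in NELF.

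Of 35 interferon response genes 0 were tested, 19 had a higher mean in NELF, and the median difference was 0.17, with medians of 2.45, 2.70 and 4.88 in NELF, Integrator and SPT5. Isg15, which encodes a ubiquitin-like modifier, had the most sites, 17.8 ± 15.4 for NELF, 7.33 ± 3.00 for Integrator and 62.2 for SPT5, and the sides overlapped. Samhd1, the gene of an enzyme that depletes nucleotides, had 8.39, 8.16 and 13.4, the RNA editing enzyme gene Adar 4.61, 7.09 and 7.31, and Ifi35 2.54, 8.70 and 3.66. These 4 were named for their number of sites. The largest difference of means was at Cxcl10, a chemokine gene named after its values were seen, with 20.3 ± 13.5 (SD, n = 4) for NELF, 2.19 ± 2.26 (SD, n = 6) for Integrator and 14.6 for SPT5, and the sides overlapped. Of the 18 members with a mean of at least 2 sites, 2 had every NELF library above every Integrator library, against 3.39% of such genes of the genome. These were Bst2, the gene of the virus-tethering protein tetherin (13.3, 4.53 and 14.6), and Mx2, the gene of an antiviral GTPase (8.29, 2.31 and 10.97), both named after their values were seen.

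Of 32 autophagy genes other than Rb1cc1, 1 was tested and it was not called. This was Uvrag, whose product acts with the Beclin 1 complex, with 10.3 ± 5.35 in NELF, 14.7 ± 4.08 in Integrator and 12.2 in SPT5 (log2 difference -0.60, SE 0.47, limma adjusted p = 0.49). Atg7, the E1-like enzyme of autophagy, had 11.6, 10.1 and 9.75, Ulk2, a kinase of the complex that RB1CC1 scaffolds, 10.1, 10.1 and 8.53, and Ambra1, a regulator of Beclin 1, 5.62 ± 1.79, 13.8 ± 4.81 and 2.44. A higher mean in NELF was found for 16 of the 32, with a median difference of 0.022. Of 21 members with a mean of at least 2 sites, 1 had every NELF library above every Integrator library, against 3.39% of such genes of the genome. This was Calcoco1 (8.59, 3.31 and 2.44), named after its values were seen.

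Gene lists for cell types were read as levels of integration, which do not measure RNA. Over 15 fibroblast genes the summed level ran from 56.0 to 268 sites per 100000 across the libraries, with medians of 9.89 in NELF, 4.89 in Integrator and 15.8 in SPT5. All 15 had sites, 2 were tested, and limma called 0 of them (0 also at an unadjusted p under 0.05). These were Sparc, with 26.7 ± 13.1 for NELF, 14.3 ± 4.18 for Integrator and 31.7 for SPT5, and Col5a1 with 15.3 ± 6.30, 26.7 ± 18.4 and 18.3. Vim, the intermediate filament gene of fibroblasts, had 22.9, 10.1 and 53.6, and Col1a1, the collagen I gene, 20.1, 6.99 and 37.8. These genes were named for their number of sites. Other markers of the list were lower: Col1a2 had 10.7, 7.96 and 21.9, Col3a1 0.83, 2.87 and 3.66, and Thy1 2.14, 2.86 and 1.22. At Col3a1 and Thy1 the NELF mean was below the Integrator mean. Of 10 members with a mean of at least 2 sites, Col1a1 was the 1 with every NELF library above every Integrator library, against 3.39% of such genes of the genome. A higher mean in NELF was found for 9 of the 15, with a median difference of 4.16.

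The summed level was 5.31 to 16.1 over 8 blood cell genes and 1.13 to 8.03 over 8 hepatocyte genes, and 0 of either list were tested. The blood cell genes with the most sites over the 11 libraries were Ptprc (27), Itgam (21), Emr1 (18) and Cd79a (11). In the hepatocyte list they were Hnf4a (12), Ahsg (6), Ttr (5), and Apoa1 and Cyp3a11 (4 each). Other markers were sparser: NELF and SPT5 had 0 sites at the T cell marker Cd3e, and the 11 libraries together had 2 sites each at Alb and Afp. Ptprc, the pan-leukocyte marker CD45, had 3.05, 2.27 and 3.66. A higher mean in NELF was found for 3 of the 8 blood cell genes (median difference -0.13) and 2 of the 8 hepatocyte genes (-0.30). The 8 neuronal genes summed to 33.2 to 76.3, with medians of 5.75 in NELF, 2.96 in Integrator and 4.27 in SPT5. Of the 8, 5 had a higher mean in NELF, with a median difference of 1.48. Among the neuronal genes 1 was tested and not called, the long gene Syt1 with 18.0 ± 3.17, 20.6 ± 8.97 and 10.97 (limma adjusted p = 0.88). The hepatocyte list thus held fewer sites in total than the fibroblast list in every library, and what part cell type has in the values of the windows was not tested.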

How the data were processed

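Per the file headers, the authors deposited for each library a list of genome positions, with strand, of the first base beyond the viral LTR, a unit other than counts or signal. Per the labels' protocols these came from linker-mediated nested PCR and paired-end sequencing, and per the submitters' processing notes and design text the build is mm9. The headers leave the 2 numbers in each read name unexplained, and aligner, read filters and molecular identifiers are not stated in the sources used here.

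The 873534 entries were collapsed to distinct chromosome, position and strand, made 1-based and divided by the library's total per 100000. The windows were picked, and lists, stretches and tests chosen, with earlier results of these data known. Sides were the 4 NELF libraries against the 6 of SOSS, INTS9 and INTS11. Regions of 1 Mb and genes with 5 kb on each side, with a mean of at least 10 sites over these 10 libraries, were fitted with limma 3.58.1 (trend, robust; R 4.3.3) on log2 of sites per 100000 plus a pseudocount of 1, with Benjamini-Hochberg adjustment, a fit tested on simulated data. Bins of 10 kb needed a mean of at least 2 sites. Site measures used exact permutation tests (Python 3.11.15, SciPy 1.17.1). Gene models were those of GENCODE on mm9.

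Genes were named by rule: in each window the 8 with the most sites, those within 5 kb of its 5 bins of largest difference, and Rb1cc1 and Irgm1; of each list, members called by limma and up to 4 with the most sites. The lists were IRG GTPases, interferon response, autophagy, and the cell type markers for fibroblasts (Col1a1, Col1a2, Col3a1, Vim and Thy1 among them), blood cells, hepatocytes and neurons; 11 of 14 IRG names, 33 of 34 autophagy names and 8 of 9 blood names matched an annotated gene. Alternatives covered the definition of a site, the denominator, window borders, bin size, flank, filter, pseudocount, limma settings and each library left out.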

Additional observations from a re-analysis of the deposited data

Results flagged for a closer look

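In 46 groups of 4 or 6 library values, 5 had 1 library far from the rest relative to the group's range, and chance alone gives such a flag in about 1 of 20 groups. NELFCD was the low NELF library in the Rb1cc1 window, with 58.2 sites per 100000 where the next was 100.1. It was also low in the 50 kb past the end of Rb1cc1, with 36.4 where the next was 73.1. INTS11 was the high Integrator library 2.5 to 5 kb past the end of Rb1cc1, with 2.95 from 1 site where the next had 1.04. In entries per distinct site NABP1 was high in the Rb1cc1 window, with 1.10, and NELFA in the Irgm1 window, with 1.07 where the other NELF libraries had 1.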

How the results depend on the processing

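The window differences of 56.8 (Rb1cc1) and 46.3 (Irgm1) sites per 100000 moved by less than 1 SD in 5 of 6 alternatives and in all 10 fits without 1 library (52.7 to 67.7 and 42.7 to 49.4). With the 10-kb bin of most sites left out, which removes the cluster by construction, they were 27.9 and 28.0. In the Rb1cc1 gene the difference of -0.91 turned to 1.62 for sites with a first number of at least 3, and ran from -1.96 to 0.17 without 1 library, positive without NABP2. The share in the top bin of the Rb1cc1 window was 28.5% with 5-kb and 67.4% with 20-kb bins. The 3 regions called lower became 0 with a pseudocount of 0.5, without the filter and without the trend and robust settings, and 0 to 5 without 1 library: 5 without NELFCD, 1 without NELFE or INTS9, 0 without INTS11, INTS3, NABP1 or NABP2. Of 1130 genes tested, 80 were called higher and 4 lower. With 1-kb flanks 792 genes were tested, with 5 higher and 2 lower. With a mean of at least 5 sites 4091 were tested, with 97 higher and 13 lower. Of the 1130 genes, 60 to 92 were called higher without 1 library. The number called lower was then 2 to 9 (9 without NELFE, 8 without INIP, 7 without INTS9, 2 without NABP1 or NABP2).

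Among the measures not used to pick the windows, the ranges without 1 library were 6.78 to 16.5 percentage points for the plus strand share at Rb1cc1, with an unadjusted p under 0.05 without NELFB (16.5) or INIP (15.02), and -3.83 to 8.08 at Irgm1, negative without NELFB (-3.83) or INTS11 (-2.85). For the first number they were 7.47 to 18.6 at Rb1cc1, past 0.05 without NELFE, and -3.95 to 30.5 at Irgm1, negative without NELFA. The second number at Rb1cc1 ran from -9.98 to 5.85, positive without NELFE (1.99) or INTS11 (5.85). Entries per site ran from -0.015 to 0.0072 and from -0.028 to 0.00084, positive without NABP1 in both windows. The causes were not tested.

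No paired analysis was possible because the labels give no replicate numbers and each protein has 1 library. Depth limits the small libraries most: in NELFE, INIP and INTS11 a stretch of 2.5 kb is read from 0 to 6 sites.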
